A study of Homo sapiens with 6 samples.

Results

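The genes described here are the 10 genes of origin recognition and replication licensing (ORC1, ORC2, ORC3, ORC4, ORC5, ORC6, CDC6, CDT1, GMNN and DBF4), taken by gene symbol from the 15953 genes of the deposited log2 CPM tables. All 10 were found. The RNA came from EJ, a human cell line established from bladder cancer, and 3 libraries were sequenced in each of 2 groups. The shNC group carried a negative control lentivirus, and the shSTIL group stably carried a lentivirus that knocks down STIL, a centriole protein. Both groups were EJ cells with no other allele or agent named, and whether the cells were 1 clone or a pool, and the sequence of the hairpin, are not given in the sources used here.

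Replication licensing is the step in which a cell prepares its origins for a single round of DNA synthesis. The origin recognition complex, ORC1 to ORC6, binds the DNA, CDC6 joins it, and CDT1 brings the MCM helicase, which is then loaded around the double helix. Geminin, the product of GMNN, binds CDT1 and blocks further loading after S phase has begun, and DBF4 is the regulatory subunit of the CDC7 kinase, which activates loaded helicases. Transcription of several licensing genes, CDC6 and ORC1 among them, is known to be driven by E2F factors at the passage from G1 to S phase.

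Summed over the 15953 genes, the reads recovered from the deposited values were 16214772 to 16901634 per library. STIL, the targeted gene, had a log2 CPM (CPM, the reads of a gene scaled to a common library total, on the log2 scale) of 5.98, 6.10 and 6.01 in the shNC libraries and 4.05, 4.06 and 4.01 in the shSTIL libraries, and 25.2% of the control level was left. As markers of the labelled cell type, KRT18 had 10049 to 10825 reads per library, whereas CDH1 had 0 to 3, UPK2 0 to 5 and GATA3 4 to 9 reads, so this keratin was abundant and these epithelial and urothelial markers were near the floor. The 5 measured markers of immune cells, endothelium and fibroblasts, of 8 listed, summed to 14.1 to 16.5 CPM in shNC and 14.9 to 16.95 CPM in shSTIL libraries. PTPRC, CD3E and COL3A1 were not in the table. CD68, at 173 to 250 reads, made up most of the sum, while PECAM1, VWF and PDGFRB had at most 7, 2 and 14 reads. COL1A1, at 21 to 59 reads, was the 1 DEG among the 5 (-0.96, limma adjusted p = 0.002). The 9 measured epithelial markers of 11 listed summed to 1075 to 1134 CPM in shNC and 969 to 1001 CPM in shSTIL libraries, with 2 lower, 1 higher and 6 not called. The keratin KRT8 (3806 to 6198 reads) fell by 0.70 and UPK1B, a urothelial plaque protein at 5 to 20 reads, fell by 1.12, whereas the keratin KRT7 (1345 to 2229 reads) rose by 0.49 (limma adjusted p = 1.1e-09, 0.0035 and 2e-06). Their part in the changes of the licensing genes was not tested. Nothing says whether the libraries of a group came from separate cultures, so the P-values measure the spread between these libraries, which may be technical.

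In the GRCh38 annotation the subunits of the complex lie at ORC1 (chr1:52372829-52404459, minus strand), ORC2 (chr2:200908973-200963680, minus strand), ORC3 (chr6:87590067-87667453, plus strand), ORC4 (chr2:147930397-148021604, minus strand), ORC5 (chr7:104126341-104208047, minus strand) and ORC6 (chr16:46689643-46698394, plus strand). The loading factors lie at CDC6 (chr17:40287633-40304657, plus strand) and CDT1 (chr16:88803213-88809258, plus strand), their inhibitor at GMNN (chr6:24774931-24786099, plus strand) and the kinase subunit at DBF4 (chr7:87876216-87909541, plus strand). Reads were estimated per gene over its transcripts.

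The promoters of the licensing genes were searched for the E2F words TTTGGCGC, TTTCGCGC, TTTCCCGC and TTTGCCGC on both strands, from 250 bases before to 50 bases after each transcript start in RefSeq (GRCh38.p14). All 10 genes matched the table, with 12 promoters, since ORC4 and GMNN have 2 each. A word was found in 4 of these 12 promoters, those of CDC6, CDT1, ORC3 and one of the GMNN promoters, and in 3.31% of all 35116 promoters. The 30-base windows around these words are shown because the 4 genes differ in how far their mRNA moved in shSTIL cells. They are written 5′ to 3′ on the strand of the gene, with the E2F word, or its reverse complement, in capitals.

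CDC6 (chr17:40287875-40287904, plus strand): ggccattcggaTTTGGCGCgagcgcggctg
CDT1 (chr16:88803743-88803772, plus strand): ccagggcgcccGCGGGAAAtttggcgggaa
GMNN (chr6:24775322-24775351, plus strand): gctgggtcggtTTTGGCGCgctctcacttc
ORC3 (chr6:87590112-87590141, plus strand): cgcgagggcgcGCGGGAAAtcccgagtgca

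The word began 7 bases after the start base of CDC6, and 35, 80 and 12 bases before that of CDT1, GMNN and ORC3. No such word lay in the windows of ORC1, ORC2, ORC4, ORC5, ORC6 and DBF4, which says only that these letters are not there. The word CCAAT, bound by NF-Y, lay in 6 of the 12 promoters on either strand, those of CDC6, ORC1, ORC2, ORC3, ORC6 and GMNN, and in 34.6% of all promoters. It lay on both strands in the promoters of CDC6, with 3 sites, and ORC6, with 2 sites, whose windows are shown with the word or its reverse complement in capitals.

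CDC6 (chr17:40287741-40287770, plus strand): tggggctctctcATTGGctgtaactcttcc
CDC6 (chr17:40287764-40287793, plus strand): ctcttccactggATTGGtagcaaaaaaaga
CDC6 (chr17:40287817-40287846, plus strand): ctgtgactacagCCAATcagaatcgaggcc
ORC6 (chr16:46689543-46689572, plus strand): aggaagaccctgATTGGtttgtgggacggt
ORC6 (chr16:46689579-46689608, plus strand): gtcctgtcctaaCCAATccagatgcgccgg

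The third motif, TTTGAA of the CHR element of late cell cycle genes, lay in 1 of the 12 promoters, that of DBF4, and in 15.2% of all promoters. A match is a description of the sequence and not a measured binding site.

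Whether licensing genes changed after STIL knockdown was asked by comparing shSTIL with shNC libraries. CDC6 and ORC1 fell most, to 31.1% and 38.8% of the control level, followed by CDT1, GMNN and ORC6. ORC3 and ORC4 fell less, ORC2 and ORC5 rose, and DBF4 did not pass the test. In all, 9 of the 10 genes were DEGs (limma across all genes, Benjamini-Hochberg adjusted p under 0.01), 7 lower and 2 higher. Among all genes tested, 7509 (47.1%) were DEGs, 23.6% lower and 23.5% higher in shSTIL cells, and without shSTIL replicate 3 the number of DEGs was 4900. All genes include those with few reads, whereas the 10 genes all had a mean log2 CPM of at least 1. A fit of the 11319 genes at that level gave 7448 DEGs, a larger share than among all genes. The median log2 fold change of the 10 genes was -0.50, beside 0.005 for all 15953 genes. shNC and shSTIL libraries were without overlap for 9 of the 10 genes and for 60.3% of all genes, those with few reads included. With 3 libraries against 3, an exact two-sided permutation test cannot go below p = 0.1, the value it gave for each of these 9 genes.

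**Figure D1:**
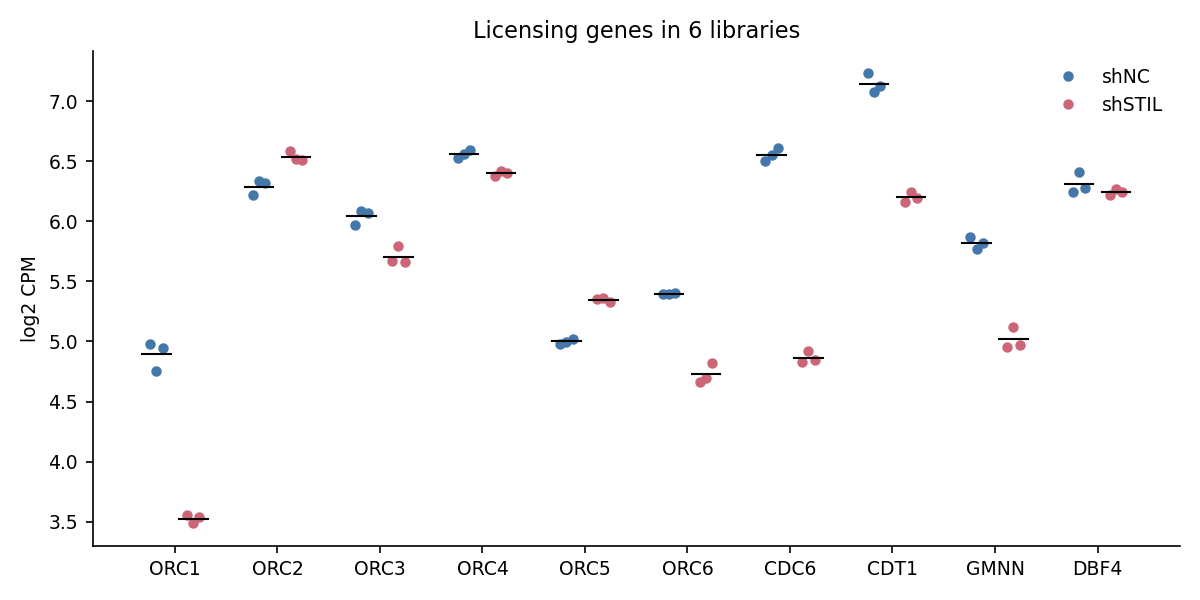
Log2 CPM (vertical axis) of the 10 licensing genes in the 3 shNC (blue) and 3 shSTIL (red) libraries, with each point a library and each line a group mean. The groups are apart for 9 genes, from 6.50 to 6.61 against 4.83 to 4.92 for CDC6, and overlap for DBF4.

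CDC6 is the ATPase that joins the recognition complex at the origin and is needed to load the helicase. Its log2 CPM was 6.50, 6.55 and 6.61 in the shNC libraries and 4.83, 4.92 and 4.84 in the shSTIL libraries. The lowest control library therefore lay 1.57 above the highest knockdown library. On the log2 scale this was a change of -1.69 ± 0.05 (SE) with a limma adjusted p of 8.9e-12, from 1447 to 1548 reads per shNC library and 485 to 520 per shSTIL library. Only 0.5% of all genes had a lower log2 fold change.

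CDT1 carries the MCM helicase to the complex. Its log2 CPM was 7.23, 7.08 and 7.13 in the shNC libraries and 6.16, 6.25 and 6.19 in the shSTIL libraries, so the groups were separated by 0.83. CDT1 changed by -0.945 ± 0.04 (SE) on the log2 scale, with a limma adjusted p of 8.2e-10, which left 51.9% of the shNC level. It had 2201 to 2408 reads per shNC library, the most of the 10 genes in that group, and 1223 to 1304 per shSTIL library. In each shSTIL library ORC2 (1541 to 1639), ORC4 (1417 to 1471) and DBF4 (1269 to 1320) had more.

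GMNN encodes geminin, the inhibitor of CDT1, which is destroyed at the end of mitosis. Its log2 CPM was 5.87, 5.77 and 5.82 in the shNC libraries and 4.96, 5.12 and 4.97 in the shSTIL libraries. Inhibitor and target thus fell together, GMNN by 0.80 on the log2 scale (standard error 0.05, limma adjusted p = 3.1e-08), to 57.3% of the control level. The log2 ratio of CDT1 to GMNN in the same library, which does not depend on how the library was scaled, was 1.365, 1.31 and 1.31 in shNC and 1.21, 1.12 and 1.22 in shSTIL libraries. The ratio was lower by 0.14 on the log2 scale, with a standard error of 0.04 and no overlap between groups (exact two-sided permutation test, p = 0.1), so CDT1 relative to GMNN stood at 90.6% of its control value.

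ORC1 is an ATPase subunit of the recognition complex and, in human cells, its protein is degraded after origins have fired. Its log2 CPM was 4.98, 4.75 and 4.94 in the shNC libraries and 3.55, 3.49 and 3.54 in the shSTIL libraries. ORC1 changed by -1.37 ± 0.08 (SE) on the log2 scale, with a limma adjusted p of 5.1e-09, on 437 to 505 reads per shNC library and 191 to 199 per shSTIL library. ORC1 had the widest spread among the shNC libraries (SD 0.12, n = 3), and the gap between the groups was 1.20.

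ORC6, a small subunit that is loosely attached to the others, had a log2 CPM of 5.40, 5.39 and 5.41 in the shNC libraries and 4.66, 4.70 and 4.82 in the shSTIL libraries. The shNC libraries were nearly alike (SD 0.008), and each shSTIL library lay at least 0.57 below them. ORC6 fell by 0.67 on the log2 scale (standard error 0.05, limma adjusted p = 1.8e-07), to 62.7% of the control level.

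The subunits ORC2, ORC3, ORC4 and ORC5 form the core of the complex, and their mRNAs moved little and in both directions. ORC2 had a log2 CPM of 6.22, 6.33 and 6.32 in shNC and 6.58, 6.52 and 6.51 in shSTIL libraries, and rose by 0.25 (standard error 0.04, limma adjusted p = 0.00018). ORC5, an ATPase-type subunit, had 4.98, 4.998 and 5.02 in shNC and 5.35, 5.36 and 5.33 in shSTIL libraries, and rose by 0.347 (standard error 0.05, limma adjusted p = 2.3e-05). These were the only 2 of the 10 genes that were higher, at 118.7% and 127.2% of the control level.

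ORC3 had a log2 CPM of 5.97, 6.08 and 6.07 in shNC and 5.66, 5.79 and 5.66 in shSTIL libraries, and fell by 0.33 (limma adjusted p = 5.4e-05, standard error 0.05). ORC4, also of the ATPase family, had 6.52, 6.56 and 6.60 in shNC and 6.37, 6.42 and 6.40 in shSTIL libraries, and fell by 0.16 (limma adjusted p = 0.0016, standard error 0.04). The groups did not overlap for either gene, but the gaps between them were only 0.18 and 0.10. The calls of ORC2, ORC3 and ORC4 changed when single libraries were left out. That of ORC2 was lost without any one of the shSTIL libraries (limma adjusted p = 0.0117 to 0.0124), and that of ORC3 without shNC replicate 3 or shSTIL replicate 1 or 3 (0.0104, 0.0116 and 0.0129). That of ORC4 was lost without shNC replicate 2 or 3 or shSTIL replicate 1 or 3 (0.0117, 0.0116, 0.0135 and 0.0148), and after median centring of the libraries (log2 fold change -0.12, limma adjusted p = 0.0135). Exons of ORC4 share 430 bases with ACVR2A on the opposite strand and those of ORC2 share 141 bases with the antisense gene AC005037.1, and strandedness of the library is not given in the sources used here.

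**Figure D2:**
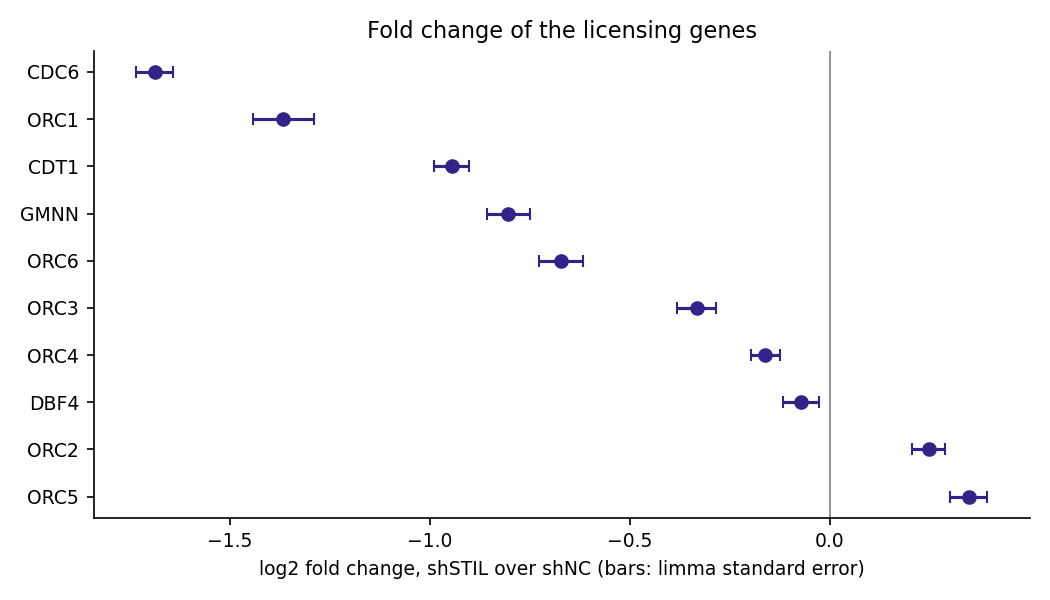
Log2 fold change of shSTIL over shNC (horizontal axis) for each licensing gene, with limma standard errors as bars. CDC6 and ORC1 lie lowest at -1.69 and -1.37, and ORC2 and ORC5 lie above 0 at 0.25 and 0.35.

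Against the mean of ORC2 to ORC5 in the same library, ORC1 had a log2 ratio of -0.94, -1.24 and -1.06 in shNC and -2.44, -2.535 and -2.44 in shSTIL libraries. ORC1 relative to the core subunits was therefore at 38.1% of its control value, a log2 difference of -1.39 (standard error 0.09, exact two-sided permutation test, p = 0.1). ORC6 relative to the core was at 61.7%, a difference of -0.70 (standard error 0.06, exact permutation p = 0.1), and CDC6 at 30.5%, a difference of -1.71 (standard error 0.02, exact permutation p = 0.1). The groups did not overlap in any of these 3 ratios, and that of CDC6 was 0.56 to 0.61 in shNC and -1.16 to -1.10 in shSTIL libraries. These ratios are not scaled by length, so only their difference between the groups can be read.

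**Figure D3:**
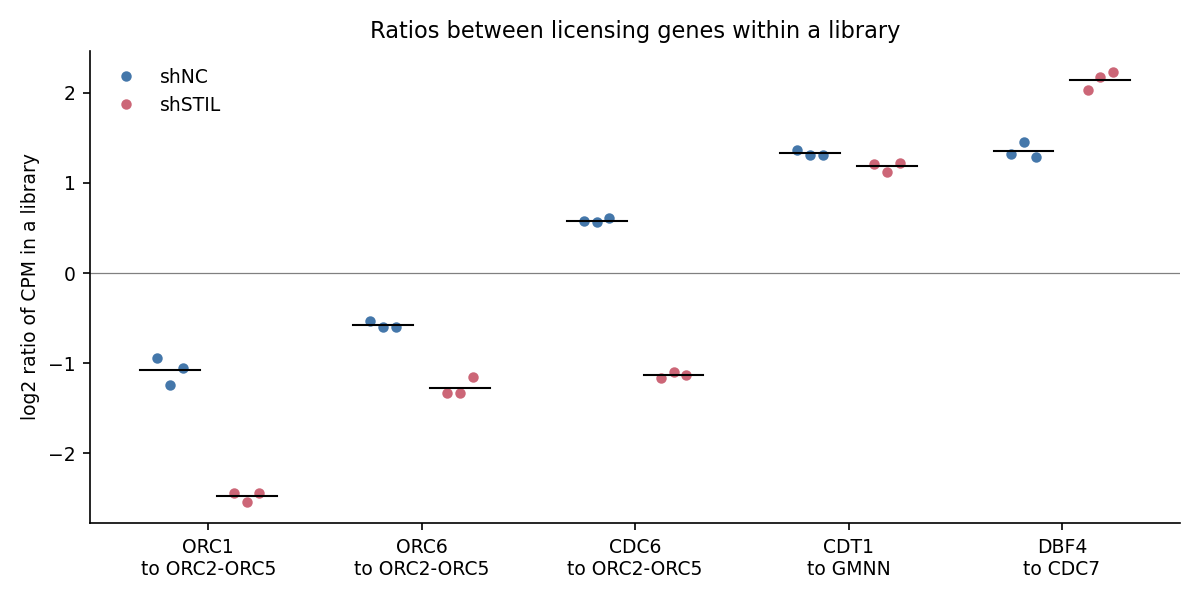
Log2 ratio of CPM (vertical axis) between licensing genes in the same library, 3 shNC (blue) and 3 shSTIL (red) libraries with group means as lines. ORC1, ORC6 and CDC6 relative to ORC2 to ORC5 are lower in shSTIL libraries, CDT1 to GMNN is lower by 0.14, and DBF4 to CDC7 is higher by 0.79.

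DBF4 was the only one of the 10 genes that was not a DEG. Its log2 CPM was 6.25, 6.41 and 6.28 in the shNC libraries and 6.22, 6.26 and 6.24 in the shSTIL libraries, so the highest knockdown library was above the lowest control library. The log2 fold change was -0.07, with a 95% interval of -0.17 to 0.03 (limma adjusted p = 0.20), so a fall of more than 0.17 lay outside the interval. CDC7, the catalytic subunit of the same kinase, fell by 0.86 (standard error 0.06, limma adjusted p = 8.1e-08). The log2 ratio of DBF4 to CDC7 was 1.32, 1.455 and 1.28 in shNC and 2.03, 2.17 and 2.23 in shSTIL libraries, a rise of 0.79 (standard error 0.08, exact two-sided permutation test, p = 0.1). Exons of DBF4 share 129 bases with SLC25A40 on the opposite strand, and a processed pseudogene, DBF4P1, is not in the table.

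The order of the log2 fold changes ran from CDC6 through ORC1, CDT1, GMNN, ORC6, ORC3, ORC4, DBF4 and ORC2 to ORC5. The same libraries set this order, so each ratio of neighbours was lower in shSTIL by construction. Its direction is not a result, and the ratios only describe how far apart neighbours lay. Within a library, the log2 ratio of CDC6 to ORC1 was lower in shSTIL by 0.32 (standard error 0.096) and that of ORC1 to CDT1 by 0.42 (standard error 0.06), with no overlap between the groups. The groups overlapped for GMNN to ORC6, lower by 0.13 (standard error 0.08, exact permutation p = 0.3). They also overlapped for ORC4 to DBF4, lower by 0.09 (standard error 0.05, exact permutation p = 0.4). There was no overlap for ORC6 to ORC3 (lower by 0.34), ORC3 to ORC4 (0.17), DBF4 to ORC2 (0.32) and ORC2 to ORC5 (0.10). Because the same libraries chose the pairs, these p-values do not test whether neighbours differ.

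Levels of the genes were compared per length, as CPM per kb of the longest coding transcript in GENCODE 29. In the shNC libraries GMNN and CDT1 stood highest, at 44.7 ± 1.47 and 43.7 ± 2.39 CPM per kb (SD, n = 3), and their libraries overlapped. ORC3 (26.3 ± 1.07) and ORC6 (25.8 ± 0.14) came next and overlapped each other, as did DBF4 (20.3 ± 1.25) and CDC6 (19.5 ± 0.73). ORC2 (18.1 ± 0.78), ORC5 (16.3 ± 0.23) and ORC4 (14.1 ± 0.35) followed, each apart from the next, and ORC1 was lowest at 9.39 ± 0.79.

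In the shSTIL libraries the order was GMNN (25.6 ± 1.66), CDT1 (22.7 ± 0.67), ORC2 (21.5 ± 0.63), ORC3 (20.9 ± 1.13), ORC5 (20.7 ± 0.25), DBF4 (19.3 ± 0.33), ORC6 (16.2 ± 0.94), ORC4 (12.6 ± 0.20), CDC6 (6.04 ± 0.21) and ORC1 (3.61 ± 0.09) CPM per kb. CDT1, ORC2, ORC3 and ORC5 overlapped from one to the next, whereas the others were apart from their neighbours. CDC6 thus moved from the sixth to the ninth place, and ORC1 was last in both groups. These places depend on the length used: with the union of all exons, ORC5 (8.56) and not ORC1 (9.39) was lowest in shNC libraries.

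**Figure D4:**
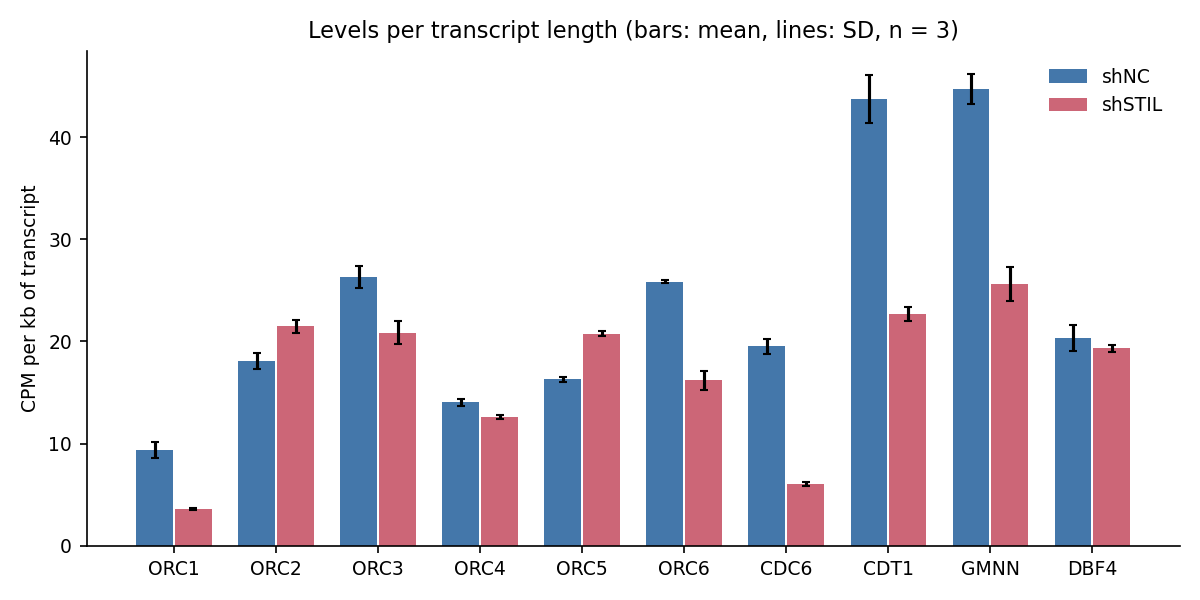
Level per transcript length (CPM per kb, vertical axis from 0) of each licensing gene in shNC (blue) and shSTIL (red) libraries, with bars as means and lines as SD (n = 3). CDC6 falls from 19.5 to 6.04 and ORC1 from 9.39 to 3.61, while ORC2 and ORC5 are higher in shSTIL.

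The other genes of the pathway were read in 3 lists. Of 12 genes of helicase loading and its kinase, 10 were lower DEGs, none was higher and 2 were not called, with a median log2 fold change of -0.82. MCM4 (-1.85) and MCM2 (-1.53), subunits of the loaded helicase, fell most in this list (limma adjusted p = 1.7e-12 and 2.3e-12). All 6 MCM2 to MCM7 subunits fell, MCM7 least at -0.78, whereas LRWD1, which binds the recognition complex, had -0.07 (limma adjusted p = 0.21) and MCMBP -0.10 (0.028), neither of which passed the threshold.

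Of 10 genes of the turnover of CDT1, geminin and CDC6, 7 were lower, 1 was higher and 2 were not called (median -0.35). PCNA, the sliding clamp on which CDT1 is marked for destruction in S phase, fell by 1.47 (limma adjusted p = 3.2e-12), and DTL, the substrate receptor of that ligase, fell by 0.97 (2.2e-10). CUL4A, a scaffold of the same ligase, rose by 0.42 (limma adjusted p = 2.1e-07), and its paralog CUL4B had -0.08 (0.16). SKP2, a receptor for phosphorylated CDT1, fell by 0.365 (limma adjusted p = 0.00012).

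Of 15 genes of origin firing, 13 were lower and 2 were not called (median -0.88). CCNE2, a cyclin of the G1 to S passage, fell by 2.80 (limma adjusted p = 1.7e-09) at 23.5 to 184.5 reads, and GINS2, a subunit of the active helicase, fell by 1.74 (limma adjusted p = 5.1e-11). GINS3 (-0.19, limma adjusted p = 0.018) and MTBP (-0.26, 0.025) were not called. Over the 3 lists, 30 of 37 genes were lower and 1 higher, beside 23.6% and 23.5% of all genes, those with few reads included.

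Most genes in the lists of cell cycle phase markers were lower in shSTIL libraries. Of 41 S phase markers other than these 10 genes, 40 were lower DEGs and none higher, with a median log2 fold change of -0.97 and a summed level of 4293 to 4317 CPM in shNC and 1994 to 2033 CPM in shSTIL libraries. CCNE2 and RRM2 (-2.09) fell most, and 9 of the 41 genes are also in the pathway lists. Of 54 G2/M markers, 39 were lower, 3 higher and 12 not called (median -0.34), with a summed level of 9758 to 9962 CPM in shNC and 7216 to 7325 CPM in shSTIL libraries. NUSAP1 (-1.28) and DLGAP5 (-1.15) fell most in that list, and RANGAP1 (0.58) and CBX5 (0.32) rose most. In bulk samples, fewer cells in a phase and less RNA per cell cannot be told apart, and the part of the cell cycle in the fall of the licensing genes was not tested.

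**Figure D5:**
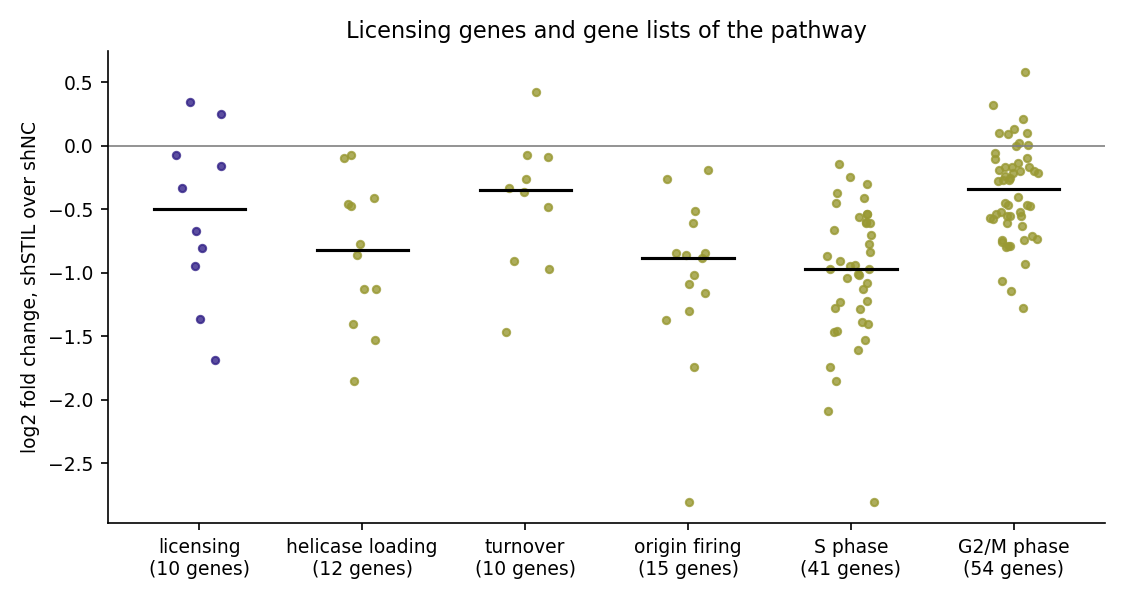
Log2 fold change of shSTIL over shNC (vertical axis) of the 10 licensing genes and of the lists of helicase loading, turnover, origin firing, S phase and G2/M genes, with each point a gene and each line the median of a list. The medians are -0.50, -0.82, -0.35, -0.88, -0.97 and -0.34, and sideways scatter has no meaning.

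For each licensing gene, the gene with the most similar pattern was taken as that with the smallest Euclidean distance between centred log2 CPM over the 6 libraries, among 11318 other genes. The nearest gene was MCM10 for ORC1 (distance 0.11), KCNJ16 for CDC6 (0.10), CD63 for CDT1 (0.05), CENPX for GMNN (0.05) and DISP2 for ORC6 (0.05). It was FAR1 for ORC2, VMA21 for ORC3, SUMO3 for ORC4, GART for ORC5 and OSBPL1A for DBF4, with distances of 0.02 to 0.05. CDC6 and ORC1, which fell most, also had the largest distances, but the distances did not follow the order of the falls throughout. The median distance to the compared genes ran from 0.44 (DBF4) to 2.07 (CDC6). The points are 6 libraries in 2 groups, which share the same group difference.

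The 3′ UTRs of the licensing genes were searched for the 7-base targets of the seeds of the siRNAs against STIL that the study lists, whose relation to the hairpin is not given. The target TGGATTA of siSTIL#2 lay in the 3′ UTR of ORC4, which held it in 2 places, and in no other of the 10, beside 9.24% of 15156 genes. TACATAT of siSTIL#1 lay in those of ORC3 and ORC4, and TTCCACA of siSTIL#3 in that of CDC6, beside 14.4% and 12.8% of genes. The 3′ UTRs of ORC1, ORC2, ORC5, ORC6, CDT1, GMNN and DBF4, among them genes that fell, rose or were not called, held none of the 3 words. The 3′ UTRs searched ran from 300 bases (GMNN) to 5113 bases (ORC4), and the shares of genes with a word are not adjusted for length. Any part of these words in the changes was not tested.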

How the data were processed

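Total RNA of EJ cells was sequenced in 3 shNC and 3 shSTIL libraries. Reads from a BGISEQ-500 were cleaned by the authors (SOAPnuke) and aligned to the transcriptome by Bowtie2 (hg38 per the labels). The authors deposited RSEM estimated counts, used here for 4 libraries, and log2 CPM from edgeR for all 6. Versions are not given in the sources used here. Column headings of the tables read siNC and siSTIL. Groups follow the sample labels. RSEM shares reads between similar transcripts.

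The deposited log2 CPM of 15953 genes were fitted with limma 3.58.1 in R 4.3.3 (eBayes with a mean-variance trend, no replicate block), with Benjamini-Hochberg adjustment over all genes and a threshold of 0.01, that of the study. The prior count of 2 in the log2 CPM understates changes of genes with few reads. The 10 genes had 191 to 2408 reads per library. Reads were recovered from the spacing of low log2 CPM values. Over all genes, 87.1% to 87.4% of the recovered values of a library were whole within 0.005. In the 4 libraries whose estimated counts were used, the recovered reads differed from those counts by at most 0.0112 reads. They gave the levels per length and, rounded, the alternatives with edgeR 4.0.16 and DESeq2 1.42.0. Ratios were tested with an exact permutation test (scipy 1.17.1). Only the main limma fit was also run on simulated data, which held far fewer changed genes than were called here. Positions, lengths and 3′ UTRs came from GENCODE 29 (GRCh38) and promoters from RefSeq (GRCh38.p14).

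The genes and lists were chosen with earlier results of these data known. In each list, the 2 largest falls and rises among DEGs are named, and for each gene the one with the nearest profile. Genes named beyond these were chosen after their values were seen.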

Additional observations from a re-analysis of the deposited data

How the results depend on the processing

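Each gene was examined under 15 alternatives. The threshold of 0.05, the filter on mean log2 CPM, the fit without the trend and the replicate block leave the log2 fold change itself unchanged. Under these, only the adjusted p or the call could differ. No log2 fold change changed direction in the other alternatives. CDC6, ORC1, CDT1, GMNN, ORC6, ORC5 and DBF4 kept their side of the threshold in all 15. CDC6 ranged from -1.72 to -1.64, ORC1 from -1.44 to -1.32 and DBF4 from -0.10 to -0.02 (limma, edgeR or DESeq2 adjusted p from 0.13 to 0.63). The call was lost in 6 alternatives for ORC4 (-0.18 to -0.12) and in 3 each for ORC2 (0.21 to 0.29) and ORC3 (-0.38 to -0.29). Besides the left-out libraries and median centring, the fit without the mean-variance trend ended the call of ORC4 (limma adjusted p = 0.0181). With each library left out, the number of DEGs was 4900 to 5638 (4900 without shSTIL replicate 3), beside 7509 with all libraries, and the number of licensing genes that were higher was 1 without any one shSTIL library and 2 otherwise. Such fits have fewer samples. The number of DEGs was 7831 with edgeR and 6781 with DESeq2. With the union of all exons, 1 of the 10 genes (ORC3) kept its place in the order of levels per length in shNC libraries, and 4 (ORC1, ORC2, ORC3 and CDC6) did in shSTIL libraries. Other settings were also run for the 5 ratios of ORC1, ORC6 and CDC6 to the core, CDT1 to GMNN and DBF4 to CDC7. These ratios moved by less than their spread with the other prior count, with quantile normalization and without each library. The replicate block cannot move them, because with equal groups it gives the same difference of means, so it is no check of the ratios. No alternative was run for the ratios of neighbours in the order of fold changes, which were added after the data were seen.

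The replicate block gave 6898 DEGs. After subtraction of the group means, same-numbered libraries correlated at -0.121, -0.055 and -0.107, and differently numbered ones at -0.024 to 0.12. Same-numbered libraries were thus no more alike, but so few libraries cannot exclude pairing. The block changed no call of the 10 genes.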
